A study of Mus musculus with 10 samples.

Results

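The miR-101 microRNAs were followed in mouse heart libraries through 3 rows of a table of 1139 mature miRNAs: mmu-miR-101a-3p, mmu-miR-101a-5p and mmu-miR-101b-3p, named below without the mouse prefix. They were chosen by name, as both arms of the miR-101a hairpin and the 3p arm of miR-101b. The choice was made with earlier results of these data known, so the p-values and intervals below are not those of miRNAs picked blind to the counts. Rows with identical counts were to be marked, and 0 other rows were identical to any of the 3 members. The table holds 5 miR-101 rows in all. The other 2, miR-101b-5p and miR-101c, are described where they bear on the members. All 3 members passed the low-count filter and were among the 457 miRNAs tested.

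Small RNA was sequenced from hearts of male mice of the C57Bl6N strain, collected 1 week after transverse aortic constriction. In this operation the aortic arch is narrowed, so that the left ventricle pumps against a raised pressure. The 5 CITED4 knockout libraries were set against 5 floxed control libraries, in which the gene carries recombination sites. All mice of both groups had the operation. The labels give neither the Cre line or cell type behind the knockout nor the age of the mice, and do not say whether each library is 1 animal, so p-values describe variation among these libraries and it may be technical. CITED4, a transcriptional co-regulator, cannot be checked in miRNA counts. Library totals ran from 8909932 to 18369483 counts in knockouts and from 7526091 to 11608900 counts in controls. Muscle miRNAs were abundant under this tissue label: summed heart muscle markers were at 220632 to 386778 CPM in knockouts and 242635 to 504094 CPM in controls. This sum was mostly miR-1a-3p. Another listed heart muscle marker, miR-208a-3p, averaged 431 CPM in knockouts and 603 CPM in controls. CPM is the count relative to the TMM-scaled library total, multiplied by 1000000. Each read stands for a whole mature miRNA, so levels of different miRNAs are compared without a length term.

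A miRNA guides an Argonaute protein to messenger RNAs that pair with its seed, bases 2 to 8, and lowers their translation and stability. Each hairpin gives a 5p and a 3p arm, of which one is usually loaded and the other mostly lost. In human cancers miR-101 is known as a repressor of EZH2, a histone methyltransferase. In rat hearts and cardiac fibroblasts it has been reported to restrain fibrosis through the transcription factor gene Fos, upstream of TGF-beta signalling. Neither collagen nor any messenger RNA was measured here, so the antifibrotic name is background and is not examined by these data.

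The mature sequences are shown because the family can be told apart by only a few bases. They are from RefSeq on GRCm38.p6, written 5′ to 3′ with the seed in capitals.
miR-101a-3p: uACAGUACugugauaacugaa
miR-101b-3p: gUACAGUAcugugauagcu
miR-101a-5p: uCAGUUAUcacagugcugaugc
miR-101c: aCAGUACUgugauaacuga
miR-144-3p: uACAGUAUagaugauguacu

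Bases 1 to 15 of miR-101a-3p recur in miR-101b-3p, where they begin at base 2, because the annotated miR-101b-3p starts 1 base earlier. Over the 18 bases that align there is 1 substitution, A16G, with positions counted from 1 at the 5′ end of miR-101a-3p and the miR-101b base given last. With that shift the annotated seeds are offset, ACAGUAC for miR-101a-3p and UACAGUA for miR-101b-3p. Each of these seeds belonged to 1 row among the 951 table rows that matched a RefSeq mature sequence by name. The deposited rows do not show where individual reads began, so the seeds are those of the annotation. The 19 bases of miR-101c lie wholly within miR-101a-3p, at positions 2 to 20. A read of miR-101a-3p that lacks its end bases cannot be told apart from miR-101c, and the counting rule for such reads is not given in the sources used here. The seed of miR-144-3p, a red cell miRNA from an unrelated locus, begins with the same ACAGUA, and apart from the members it was the only such row at bases 2 to 7 or 3 to 8.

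The hairpins show where the arms come from, with the annotated mature arms in capitals.
Mir101a: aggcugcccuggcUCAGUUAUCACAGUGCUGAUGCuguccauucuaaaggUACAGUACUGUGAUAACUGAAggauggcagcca
Mir101b: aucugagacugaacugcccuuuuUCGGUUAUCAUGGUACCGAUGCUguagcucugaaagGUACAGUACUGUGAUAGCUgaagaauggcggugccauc

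Mir101a lies on the minus strand at chr4:101346945-101347027 (GRCm38), within an exon of E130102H24Rik, a long noncoding RNA gene (GENCODE M21). Mir101b lies on the plus strand at chr19:29135279-29135375, in an intron of Rcl1, a gene for a factor of ribosomal RNA processing. No other RefSeq hairpin lies within 10 kb of either. When the Mir101b hairpin is read in the register of miR-101a-3p, A16G is the only substitution over the 21 bases.

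The guide arm miR-101a-3p made up most of the family's reads in every library. It stood at 366, 427, 541, 766 and 431 CPM in knockout replicates 1 to 5, against 396, 467, 1208, 766 and 758 CPM in control replicates 1 to 5. Knockouts and controls overlapped across most of this range: 4 of 5 knockout libraries were below the control mean, 1 was below the lowest control, and 2 controls were above the highest knockout. Control replicates 1 and 2 lay among the knockouts, and knockout replicate 4 lay among the higher controls. Its rank by count ran from 62 to 81 in knockouts and from 48 to 85 in controls, and its share of all counts from 0.0428% to 0.0752% and from 0.0447% to 0.137%.

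miR-101a-3p averaged 506 ± 158 CPM in knockouts and 719 ± 320 CPM in controls (SD, n = 5 each), a ratio of fitted levels of 0.704. The log2 fold change was -0.51 ± 0.29 (SE), with a 95% interval from -1.13 to 0.12, and the edgeR quasi-likelihood test over all 457 miRNAs gave an adjusted p of 0.64. The interval runs from 0.458 to 1.08 of the control level, so a large loss and no change both lie inside it. Without control replicate 3, the highest library, the log2 fold change was -0.21 (adjusted p = 0.77, edgeR). In all 19 fits over the other settings and left-out libraries it was also negative. With 4344 to 10320 reads in each library, counting error alone would give a coefficient of variation near 1.23% in knockouts and 1.24% in controls. The observed values were 31.3% and 44.5%, so the spread between libraries, and not depth, set the width of the interval.

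miR-101b-3p, from the Rcl1 intron, was a far rarer form. Knockout replicates 1 to 5 had 13.03, 11.5, 20.2, 17.8 and 17.2 CPM, against 12.9, 12.8, 20.4, 21.2 and 20.1 CPM in control replicates 1 to 5. The groups overlapped nearly throughout, and again control replicates 1 and 2 lay with the low knockouts, replicates 1 and 2. The means were 16.0 ± 3.59 CPM in knockouts and 17.5 ± 4.24 CPM in controls (SD, n = 5 each). The log2 fold change was -0.13 ± 0.22 (SE), with a 95% interval from -0.60 to 0.35 (edgeR adjusted p = 0.80). That interval spans 0.660 to 1.27 of the control level. With 1 library left out the value lay between -0.21 and -0.005, and was nearest to 0 without knockout replicate 2.

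The passenger arm miR-101a-5p was rarest of the 3 members. Its counts were 40, 32, 49, 35 and 60 reads in knockout replicates 1 to 5 and 31, 40, 72, 48 and 53 reads in control replicates 1 to 5. These came to 3.30, 3.14, 3.09, 3.32 and 3.29 CPM in knockouts, against 2.69, 3.52, 8.43, 5.93 and 6.42 CPM in controls. All 5 knockouts lay close together below the control mean, and 4 of 5 controls were above the highest knockout, while control replicate 1 was below them all. The means were 3.23 ± 0.103 CPM in knockouts and 5.40 ± 2.31 CPM in controls (SD, n = 5 each). The log2 fold change was -0.73 ± 0.30 (SE), with a 95% interval from -1.38 to -0.08 before adjustment; edgeR's adjusted p was 0.64. Without control replicate 3 it was -0.48 (adjusted p = 0.76, edgeR). Counting error alone would give a coefficient of variation of 15.2% in knockouts and 14.3% in controls, against the observed 3.2% and 42.9%.

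**Figure D1:**
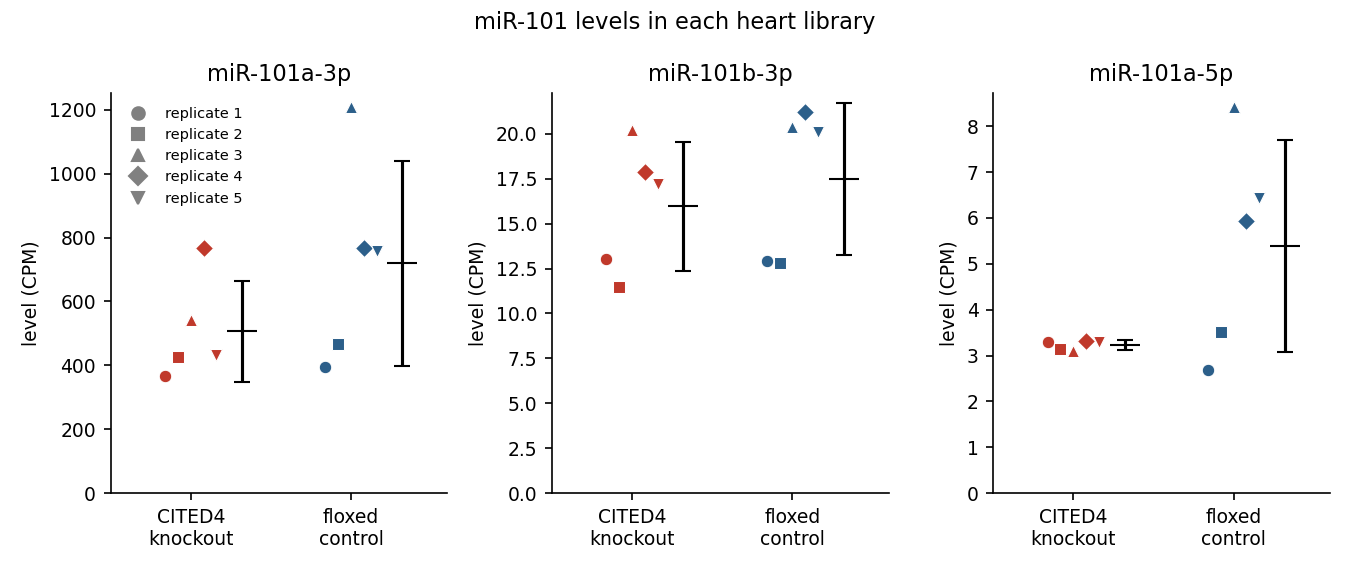
Level of each member in CPM (vertical axes, linear, from 0) in the 5 CITED4 knockout and 5 floxed control libraries; marker shapes give the replicate number, and the black bar is the mean ± SD. Control replicates 1 and 2 lie near knockout levels for all 3 members, and miR-101a-5p spans only 3.09 to 3.32 CPM in knockouts against 2.69 to 8.43 CPM in controls.

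None of the 3 members passed the adjusted threshold of 0.05, where 0% of the 457 tested miRNAs did (0 of 457, edgeR). DESeq2 and limma also called 0. Before adjustment, miR-101a-5p was the only member under 0.05. Its unadjusted p was 0.032 and its adjusted p 0.64 in the edgeR fit over all miRNAs. At that level 3.5% of all miRNAs tested (16 of 457) were lower in knockout and 6.35% (29 of 457) differed in either direction. With 3 members this is not a result about the family. In none of the members were the groups free of overlap, against 0.656% of all miRNAs tested. The means of all 3 were lower in knockout, as were those of 214 of 457 miRNAs. The sign held for each member with RLE size factors and with library totals only. Scaling by library totals alone shifted all tested miRNAs up by 0.11 at the median (log2), and the members then had fold changes of -0.43, -0.02 and -0.61 for miR-101a-3p, miR-101b-3p and miR-101a-5p.

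The order of levels was the same in all 10 libraries: miR-101a-3p, then miR-101b-3p, then miR-101a-5p. The ratio of miR-101a-3p to miR-101b-3p reads was 28.1, 37.1, 26.8, 42.9 and 25.1 in knockout replicates 1 to 5, and 30.7, 36.4, 59.3, 36.1 and 37.7 in control replicates 1 to 5. On the log2 scale, with 0.5 added to each count, it averaged 4.96 ± 0.33 in knockouts and 5.28 ± 0.36 in controls (SD, n = 5 each). The difference of -0.32 ± 0.22 (SE) did not exceed the variation among libraries (p = 0.20 by an exact permutation test, two-sided; adjusted p = 0.40 over 2 ratios). Without control replicate 3 it was -0.16. Such a ratio does not depend on how a library is scaled.

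The ratio of guide to passenger reads of miR-101a was 111, 136, 175, 230 and 131 in knockout replicates 1 to 5, and 147, 133, 143, 129 and 118 in control replicates 1 to 5. Knockouts lay on both sides of the controls, with the lowest and the highest ratio of all 10 libraries among them. The log2 ratio averaged 7.23 ± 0.41 in knockouts and 7.05 ± 0.13 in controls (SD, n = 5 each), a difference of 0.18 ± 0.19 (exact two-sided permutation test, p = 0.42, adjusted p = 0.42 over 2 ratios). The difference was 0.03 without knockout replicate 4 and 0.29 without knockout replicate 1. The smallest p this test can give with 5 against 5 is 0.0079. The passenger arm was 0.432% to 0.893% of the hairpin's reads in knockouts and 0.674% to 0.840% in controls. For the extreme libraries, knockout replicates 4 and 1, the 95% Wilson intervals were 0.311% to 0.600% and 0.657% to 1.21%. These intervals cover counting error only and do not overlap. The 2 libraries were picked as the lowest and highest of all 10, so the gap between their intervals is not a test.

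**Figure D2:**
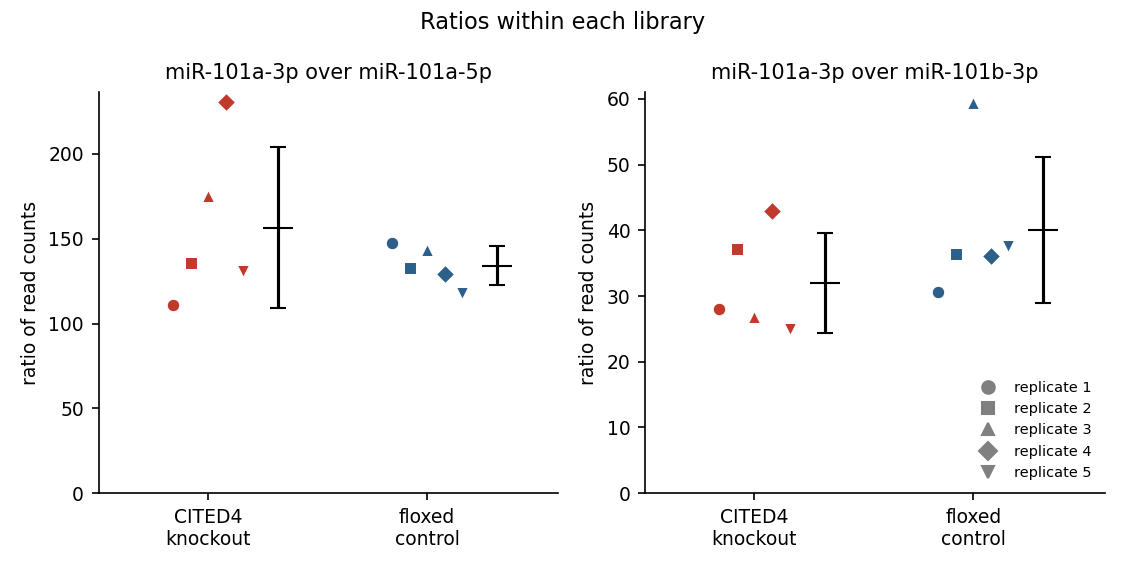
Ratio of read counts of miR-101a-3p to miR-101a-5p (left) and to miR-101b-3p (right) in each library, on linear axes from 0, with mean ± SD as black bars. The guide-to-passenger ratio spans 111 to 230 in knockouts and 118 to 147 in controls, and control replicate 3 has the highest miR-101a-3p to miR-101b-3p ratio at 59.3.

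Across the series, 136 hairpins had both arms tested under names that differ only in the arm. Over all libraries the minor arm of miR-101a held 0.693% of the hairpin's reads, against a median of 6.5% for the 136, and 27 hairpins had a smaller minor arm. The arms of miR-101a differed by 0.22 in their log2 fold changes. The median difference between arms over these hairpins was 0.19 in size, and 57 hairpins had a larger one, so larger differences between arms were common.

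The remaining miR-101 rows were low. miR-101b-5p had 10 reads in all: 4 and 2 in knockout replicates 2 and 3, 4 in control replicate 4, and 0 in the other 7 libraries, where a count of 0 allows up to 0.163 to 0.399 CPM (3 counts of the unscaled total). It was not tested. miR-101c had 4.87, 4.32, 4.29, 6.64 and 6.19 CPM in knockouts and 2.77, 2.64, 11.6, 7.28 and 8.24 CPM in controls. Control replicates 1 and 2 were again low and replicate 3 highest. Its reads amounted to 0.793% to 1.44% of those of miR-101a-3p in knockouts and 0.565% to 1.09% in controls. Adding them to miR-101a-3p, a setting chosen after seeing the data, left its log2 fold change at -0.50.

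miR-144-3p, which shares 6 seed bases, had 100, 257, 259, 596 and 344 CPM in knockout replicates 1 to 5, against 133, 258, 510, 709 and 816 CPM in control replicates 1 to 5. It is made in red cells, and its log2 fold change was -0.64 ± 0.48 (SE; edgeR adjusted p = 0.64). Its level was thus of the order of that of miR-101a-3p, and the groups overlapped.

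Other miRNAs linked to cardiac fibrosis were described from lists set out with earlier results of these data known. Of 10 miRNAs reported to restrain fibrosis, all 10 were tested and 0 passed the adjusted threshold. Of these, 9 had a lower mean in knockout, beside 214 of all 457 tested miRNAs. The median log2 fold change was -0.35 against 0.03 over all tested miRNAs. With library totals only, 8 were lower, beside 161 of all 457, and the median was -0.25 against 0.14, with miR-24-3p changing sign. The listed miRNAs are not independent: they include miR-29a-3p, miR-29b-3p and miR-29c-3p of 1 family, and the near copies miR-133a-3p and miR-133b-3p. The 4 with the smallest p were miR-133a-3p, miR-133b-3p, miR-29c-3p and miR-378a-3p. miR-29c-3p, of a family that targets collagen transcripts, had 1704, 1698, 2412, 3057 and 1898 CPM in knockout replicates 1 to 5, against 2045, 1953, 4567, 3552 and 3751 CPM in control replicates 1 to 5. The libraries stood in much the same order as for miR-101a-3p, and its log2 fold change was -0.56 ± 0.25 (SE; edgeR adjusted p = 0.64). miR-133a-3p and its near copy miR-133b-3p, muscle miRNAs that target the fibrosis factor CTGF, had log2 fold changes of -0.46 and -0.56, and miR-378a-3p, encoded in the metabolic regulator gene Ppargc1b, had -0.56 (edgeR adjusted p = 0.64 for each).

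Of 5 miRNAs reported to promote fibrosis, 0 passed, 3 had a higher and 2 a lower mean, and the median was 0.06. With library totals only all 5 were higher, as miR-34a-5p and miR-155-5p changed sign, and the median was 0.16 against 0.14 over all miRNAs. Under that scaling only 161 of the 457 tested miRNAs were lower in knockout. miR-21a-5p, known to rise in fibrosing hearts, was at 77287 ± 25544 CPM in knockouts and 52572 ± 28415 CPM in controls (SD, n = 5 each), and miR-433-3p was at 18.8 ± 3.93 and 13.3 ± 4.85 CPM. Their log2 fold changes were 0.56 ± 0.35 and 0.49 ± 0.26 (SE; edgeR adjusted p = 0.64 for both).

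**Figure D3:**
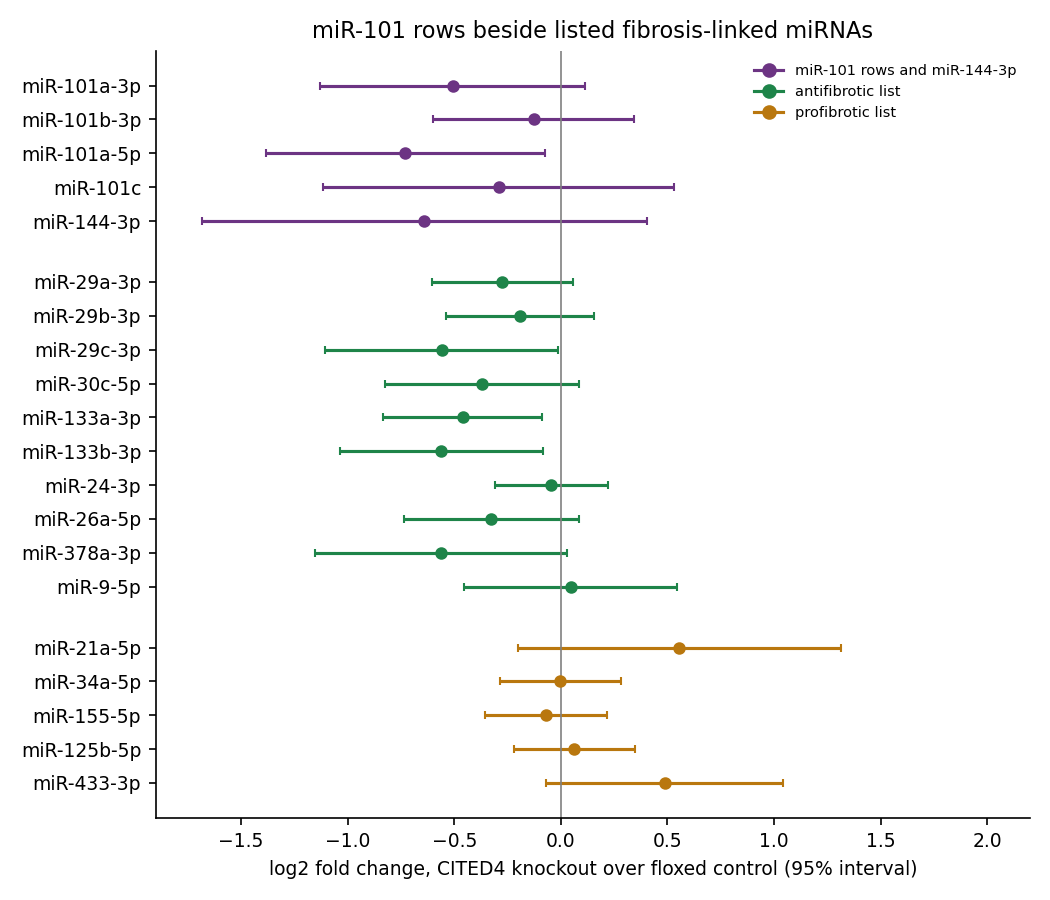
Log2 fold change of CITED4 knockout over floxed control (horizontal axis) with unadjusted 95% intervals from edgeR, for the miR-101 rows and miR-144-3p, 10 antifibrotic and 5 profibrotic listed miRNAs. Most intervals hold 0, and those of miR-101a-5p, miR-29c-3p, miR-133a-3p and miR-133b-3p lie just below it before adjustment.

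The summed fibroblast markers were low where miR-101a-3p was high. The 4 listed fibroblast markers, miR-21a-5p, miR-199a-3p, miR-199a-5p and miR-214-3p, were all tested and summed to 100981, 132710, 82575, 52492 and 112689 CPM in knockout replicates 1 to 5, against 108890, 101515, 40105, 46238 and 38600 CPM in control replicates 1 to 5. The 4 libraries with the lowest sums, knockout replicate 4 and control replicates 3, 4 and 5, were the 4 with the highest miR-101a-3p. The other 6 libraries had at least 82575 CPM of fibroblast markers and at most 541 CPM of miR-101a-3p. The same 4 libraries stood apart over the whole miRNA profile: the first principal component of log2 CPM of the 457 miRNAs, with 44.8% of the variance, placed them at 5.62 to 10.6 and the other 6 at -9.31 to -0.71. The fold changes of the members and of the listed miRNAs, and the r values given below, come from the same libraries. The part of this split in them was not tested. Because the libraries fell into 2 such sets, no correlation of the members with the marker sums is given. For miR-101b-3p the order was looser, with 20.2 CPM in knockout replicate 3 beside 82575 CPM of fibroblast markers. This sum is mostly miR-21a-5p, which is also in the profibrotic list.

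The 5 heart muscle markers, of which miR-1a-3p made up most, summed to 225279, 220632, 386778, 367642 and 320339 CPM in knockout replicates 1 to 5, and to 242635, 316930, 248847, 504094 and 470738 CPM in control replicates 1 to 5. Control replicate 3 joined the highest miR-101a-3p of all libraries to one of the lower muscle sums. That sum chiefly follows miR-1a-3p, and miR-1a-1-5p, the passenger arm of a muscle hairpin, was highest in this same library, at 36.9 CPM. Of the 5 markers, 4 had a lower mean in knockout and 1, miR-208b-3p, a higher mean. Of 4 listed red cell markers 3 were tested. They summed to 11532 to 25240 CPM in knockouts and 13759 to 33016 CPM in controls, highest in control replicate 3. These sums split the libraries in the same way as the fibroblast sums, but in the other direction. Knockout replicate 4 had 25240 CPM, and control replicates 3, 4 and 5 had 33016, 25807 and 29599 CPM. Every other library had at most 19382 CPM. The split is thus not particular to the fibroblast markers. The pairs of endothelial and smooth muscle markers and the 4 leukocyte markers had overlapping sums, at 25223 to 34443 CPM, 26124 to 32865 CPM and 814 to 1197 CPM in knockouts and 26220 to 35318 CPM, 27826 to 33670 CPM and 908 to 1117 CPM in controls. The part of these cell types in the miR-101 levels was not tested, and in whole-heart RNA fewer cells of a type and less RNA per cell cannot be told apart.

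**Figure D4:**
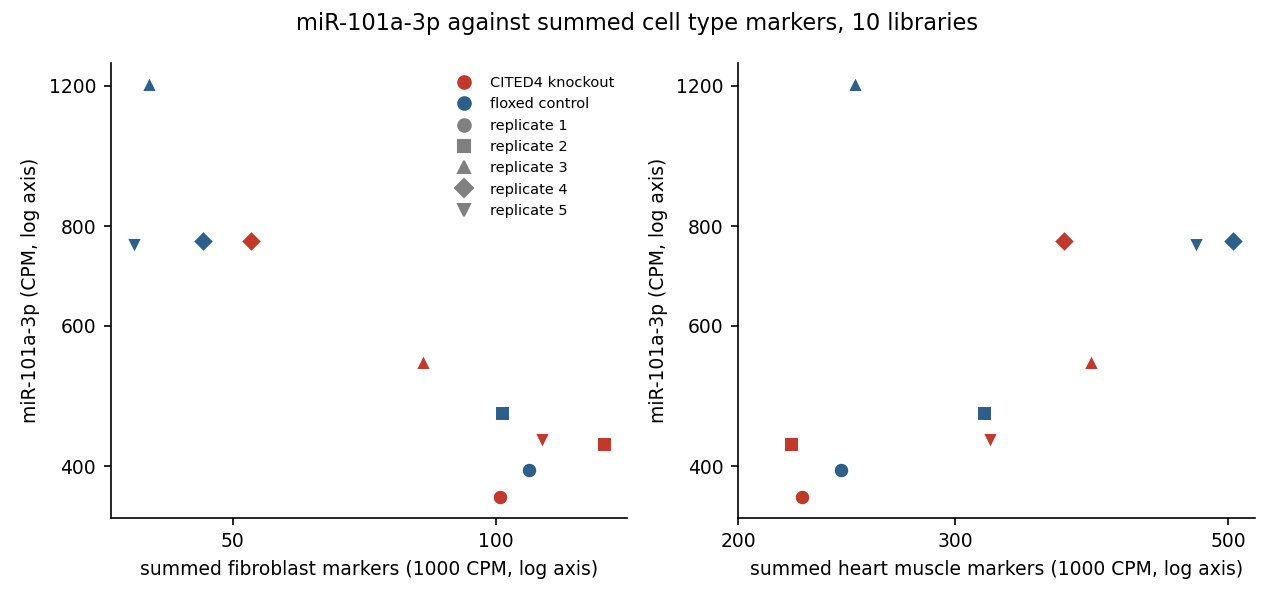
miR-101a-3p level (CPM, log axis) against summed fibroblast markers (left) and heart muscle markers (right), in units of 1000 CPM on log axes; 1 point per library, coloured by genotype and shaped by replicate. Low fibroblast sums, 38600 to 52492 CPM, go with 758 to 1208 CPM of miR-101a-3p, in 3 controls and 1 knockout.

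The miRNAs whose levels followed the members most closely were ranked by Pearson's r of log2 CPM over the 10 libraries, after the mean of each group was taken out. They are the top of 456 compared, so r is a description with no test, and all values share library scaling and composition. Taking out the group means does not remove the split of libraries described above, which runs across genotype. For miR-101a-3p they were miR-1a-1-5p (r = 0.99, Spearman's rho = 0.94), miR-30b-5p (0.98 and 0.95), miR-106b-5p (0.97 and 0.93), miR-29c-3p (0.97 and 0.96) and miR-181c-5p (0.95 and 0.93). With the 2 libraries farthest from the median left out, control replicates 1 and 3, r was 0.94 to 0.98. miR-1a-1-5p, the passenger arm of a muscle hairpin, had 15.01, 17.0, 19.5, 25.4 and 16.2 CPM in knockout replicates 1 to 5, against 16.2, 19.9, 36.9, 24.8 and 27.8 CPM in control replicates 1 to 5. Its lowest and highest libraries, knockout replicate 1 and control replicate 3, were also those of miR-101a-3p.

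The other members stood lower in this ranking than these 5, which were picked for the highest r, so the comparison does not show that the members vary apart. The passenger arm miR-101a-5p stood at place 33 of 456 (r = 0.83, rho = 0.84), and r was 0.56 without control replicates 1 and 3. These values rest on only 31 to 72 reads of miR-101a-5p in each library. miR-101b-3p stood at place 46 (r = 0.78, rho = 0.73), and r was 0.75 without the same libraries. The 5 nearest to miR-101b-3p were miR-26a-5p (r = 0.94, rho = 0.85), miR-881-3p (0.93 and 0.82), miR-133b-3p (0.93 and 0.73), miR-181d-5p (0.91 and 0.76) and miR-708-5p (0.91 and 0.82). Without knockout replicate 2 and control replicate 2 these were at r = 0.85 to 0.94. The 2 lists of 5 had no miRNA in common. miR-881-3p averaged only 0.755 ± 0.470 CPM in knockouts and 1.38 ± 0.864 CPM in controls (SD, n = 5 each), so its place rests on few reads.

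**Figure D5:**
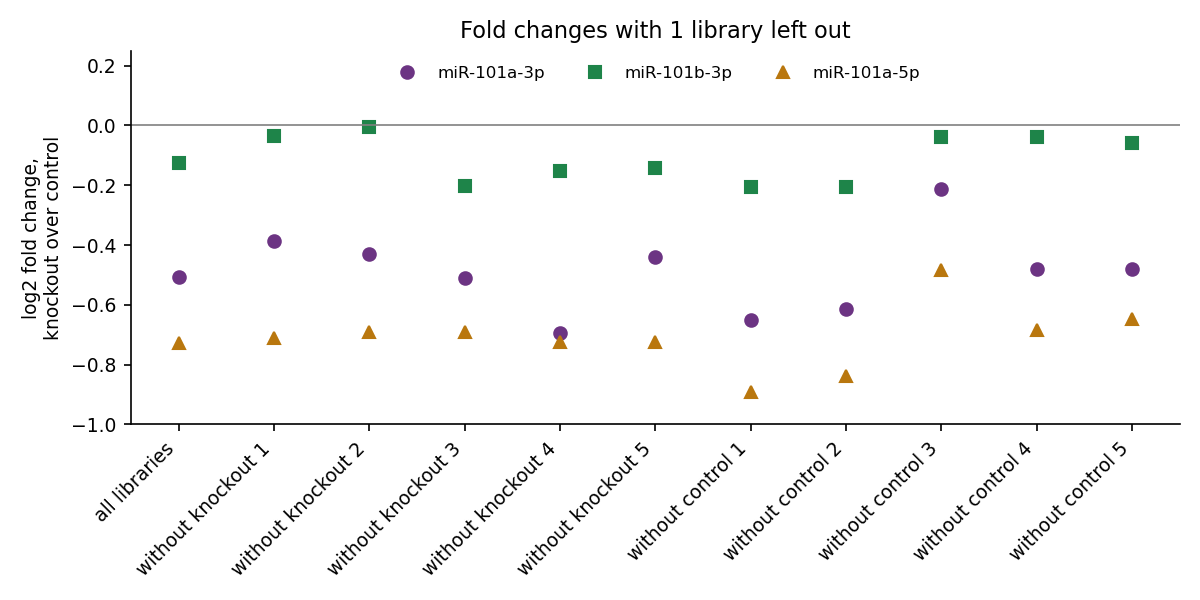
Log2 fold change (knockout over control, vertical axis) of the members with all libraries and with each library left out in turn. All values lie below 0; leaving out control replicate 3 gives -0.21 for miR-101a-3p and -0.48 for miR-101a-5p, and miR-101b-3p reaches -0.005 without knockout replicate 2.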

How the data were processed

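The authors deposited raw read counts per mature miRNA for 10 libraries. A second deposited table holds a linear signal, the same counts divided by 1 factor per library (relative tolerance 1e-09), equal to the DESeq2 size factor computed here. Per the submitters' processing notes, cutadapt 1.10, Bowtie, STAR, DESeq2 and GRCm38 were used, with no role given. Not given in the sources used here are the annotation release, how multi-matching reads were counted and whether molecular identifiers were used.

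Columns were matched to libraries by title. filterByExpr kept 457 of 1139 miRNAs. Knockout was compared with control by edgeR 4.0.16 (R 4.3.3; TMM, quasi-likelihood test, genotype as the only term) with Benjamini-Hochberg adjustment over 457 miRNAs and a threshold of 0.05. Log2 CPM used a prior count of 2. Log2 ratios were compared by exact permutation (scipy 1.17.1). DESeq2 and limma 3.58.1 were alternatives. Library pairs of a group differed by at least 108 times sampling noise (chi-square per degree of freedom). The 3 members are always named. Beside them stand the 5 nearest miRNAs to each 3p member, seed relatives, and up to 4 per list by smallest p. Members and lists were chosen with earlier results of these data known. Replicate numbers were not taken to pair libraries. Intervals cover library spread or counting error only.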

Additional observations from a re-analysis of the deposited data

Results flagged for a closer look

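The 3 member levels in CPM and both ratios, as ratios of counts and on the log2 scale, were examined for a library far from the other 4 of its group, in 14 groups in all. Control replicate 3 had a ratio of miR-101a-3p to miR-101b-3p counts of 59.3, against 30.7 to 37.7 in the other controls, a gap of 0.755 of the group's range where 0.71 is the 95% critical value. On the log2 scale the gap was below that value. Chance gives about 1 in 20 groups.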

How the results depend on the processing

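All 3 fold changes kept their negative sign and stayed short of the threshold in every alternative run, 20 for miR-101a-3p, 19 for miR-101b-3p and 18 for miR-101a-5p. The stricter filter (10 CPM in 5 libraries) removed miR-101a-5p. The count of miRNAs past the threshold was 0 in all 19 fits, with a smallest adjusted p of 0.15, reached with the replicate block, against 0.99 with DESeq2. With the replicate block the log2 fold changes were -0.44, -0.13 and -0.64 for miR-101a-3p, miR-101b-3p and miR-101a-5p (edgeR adjusted p = 0.26, 0.73 and 0.32), and no call changed. Deviations of same-number libraries from their group means had correlations of -0.12 to 0.45, and 4 of 10 libraries were nearest to their own number, so the numbers are not shown to pair them. With 1 library left out the log2 fold changes ranged from -0.69 to -0.21, -0.21 to -0.005 and -0.89 to -0.48 in the same order, with adjusted p from 0.25 to 0.86, 0.63 to 1.00 and 0.25 to 0.86. The differences in log2 ratio ranged from 0.03 (without knockout replicate 4) to 0.29 for the arms of miR-101a and from -0.43 to -0.16 (without control replicate 3) for miR-101a-3p over miR-101b-3p. With the replicate block they were 0.18 and -0.32. Depth limits miR-101a-5p most, at 31 to 72 reads in each library.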

Other observations

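The even level of miR-101a-5p in knockouts was noticed after its values were seen. If the 5 knockout libraries had 1 shared level, the chi-square of their counts about it was 0.180 on 4 degrees of freedom. It was the lowest of 914 values, 1 for each of 457 miRNAs in each group. Among the 244 of these with a mean count of 20 to 100 the median was 17.2. The control libraries gave 41.2 for the same miRNA. The knockout value depended on the scaling, at 0.330 with the deposited factors and 3.14 with library totals only. The guide arm of the same hairpin gave 2270 in knockouts and 5761 in controls, from far more reads.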
